A study of Oreochromis niloticus with 14 samples.

Results

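The genes described here were abundant in the liver of adult male tilapia (Oreochromis niloticus) and nearly absent from the testis, and they were followed after low-dose benzo(a)pyrene (BaP), a polycyclic aromatic hydrocarbon. The genes of the liver table were ranked by their mean in the control livers, and the top 200 were taken. Of these, 185 also had a row in the testis table, and 95 had a control-testis mean under 1% of the control-liver mean. A list of 9 IDs, 7 of them digestive enzymes of the pancreas and 2 a hemoglobin, was then set aside, of which 6 had met the limit. This left 89 genes of the 12377 present in both tables. The control levels chose these genes, so their abundance in liver and scarcity in testis are a description and not a result.

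RNA-Seq was made from BaP liver (4 fish), control liver (4 fish), BaP testis (3 fish) and control testis (3 fish), all 1-year-old males of one stock. BaP fish received 5 intraperitoneal injections of 3 mg/kg, 6 days apart, in DMSO and corn oil. Control fish received that carrier alone, and all were sampled on day 26. Each aquarium held fish of 1 treatment, so aquarium and BaP cannot be told apart. The libraries held 12485109 to 42836246 gene reads in liver and 26694344 to 30347667 in testis. Values are normalized CPM, that is the reads of a gene relative to all gene reads of its library, scaled as CPM, with the library size corrected by a TMM factor. A longer transcript gives more reads, so levels are compared between fish and not between genes. A floor of 3 reads was set for detection, which came to between 0.0646 and 0.27 normalized CPM and covers counting error only. Among the 89 genes, 1, 0 and 2 fell under 3 reads in BaP testes 1, 2 and 3, against 0, 2 and 3 in control testes 1, 2 and 3. None was at 0.

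The liver makes most proteins of the blood plasma. Hepatocytes release apolipoproteins, which carry lipid, fibrinogen and the other clotting factors, the complement proteins of innate defence, and inhibitors that hold plasma proteases in check. They also hold enzymes of gluconeogenesis and amino acid breakdown. In many teleosts exocrine pancreas tissue lies within or along the liver, so a liver sample may carry its transcripts. Germ cells and their supporting cells make up most of a mature testis. The 17 hepatocyte marker genes on the fixed list summed to 145267 to 210804 normalized CPM in BaP livers and 105954 to 148466 in control livers, but 13 of them are among the 89, so the rule fixed their level and they check no label. Of the 4 others, SERPINC1, or antithrombin, was at 1140 to 1597 in BaP livers and 611 to 990 in control livers. The other 3, second IDs of FETUB and LECT2 and itih1, were lower, and the 4 summed to 1496 to 2527 in BaP livers and 687 to 1594 in control livers. The 2 of them in the testis table, that FETUB ID and itih1, summed to 11.5 to 17.9 in BaP testes and 5.83 to 8.89 in control testes.

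The deposited tables list Ensembl IDs alone. A name was available for 38 of the 89 genes, through a supplementary list of 1526 genes that the study called altered in these same libraries, and 51 had none. Named genes were thus picked partly by their change, and counts over them are not independent evidence of a direction. Some symbols, such as INHBC, CPA3, KLK2 and PRF1, come from human genes of like sequence and may not give the function of the tilapia gene. Just inside the 1% limit stood 4 genes without a name, at 0.820, 0.835, 0.933 and 0.994%. Just outside it were 3 without a name, at 1.09, 1.27 and 1.27%, and C6orf58 at 1.39%. The named genes nearest to the limit were A1CF (0.376%), VTN (0.257%) and THRSP (0.237%) inside it, with SLC1A3 (1.67%) and SCD (1.90%) next after C6orf58 outside it.

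The 89 genes took a larger share of the liver library with BaP. They held 40.9, 40.3, 41.2 and 42.1% of gene reads in BaP livers 1 to 4, against 36.1, 33.9, 38.1 and 36.2% in control livers 1 to 4. The groups did not overlap. The summed level was 442533 ± 36204 normalized CPM in BaP livers and 338177 ± 47784 in control livers (SD, n = 4 each), a ratio of 1.31, with a slight overlap between BaP liver 2 (394189) and control liver 3 (401771). In bulk tissue, a different number of hepatocytes and a different amount of RNA per hepatocyte cannot be told apart.

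**Figure D1:**
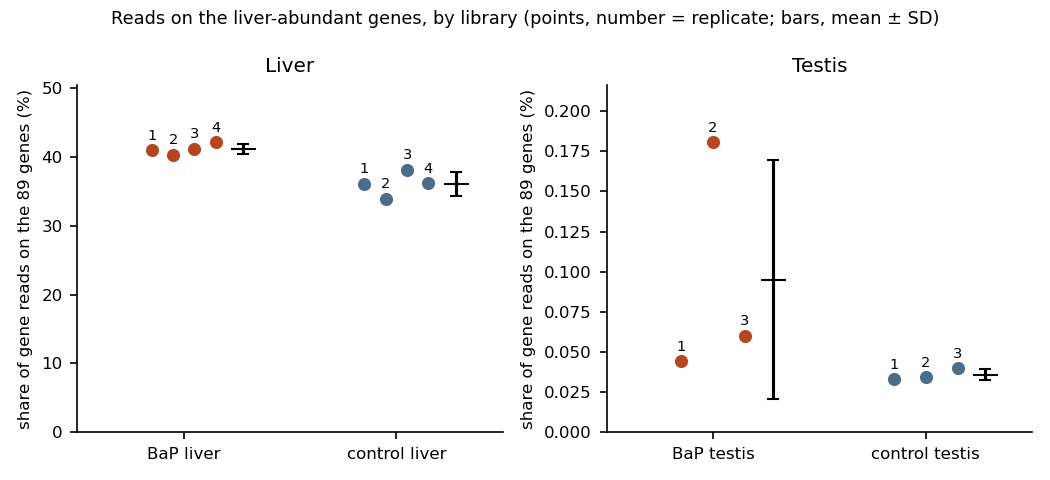
Share of gene reads (%) on the 89 genes in each library, for liver and testis on separate linear axes from 0. Points are libraries with their replicate number, and bars are mean ± SD (n = 4 in liver, n = 3 in testis). All 4 BaP livers (40.3 to 42.1%) lie above all 4 control livers (33.9 to 38.1%), while in testis BaP replicate 2 (0.180%) stands far above the other 5 (0.0332 to 0.0602%).

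Gene by gene, 67 of the 89 had a log2 fold change above 0 in liver and 22 below. Their median log2 fold change was 0.40, beside 0.02 over the 12902 liver genes tested. BaP and control were compared by limma, on log2 values after 1 was added to each, and p was adjusted by Benjamini-Hochberg over all liver genes. No gene of the 89 reached an adjusted p under 0.05, where 0.0698% of all liver genes did. At an unadjusted p under 0.05, 21 were higher with BaP (6.76% of all liver genes) and 2 lower (6.77%). The study's own threshold is a fold change over 1.5 at an unadjusted p under 0.05, which the study took from edgeR's exact test. Here it was set on limma's p wherever no other test is named. It was passed upwards by 20 genes (22.5%), where 5.93% of all liver genes passed, and downwards by 2 (2.25%), where 6.07% passed. With libraries scaled by their size alone, these counts were 4 upwards and 4 downwards, and the shares of all liver genes under that scaling are not given here. That scaling moved the median of all liver genes to -0.16 and of the 89 to 0.19, and the distance between them was 0.35, against 0.38 with the TMM factors. In 13 genes every BaP liver lay above every control liver (4.05% of all genes), and in 2 every BaP liver lay below (3.67%).

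The count of 20 depended on single livers. It was 34 without control liver 3, 13 without control liver 2, 12 without control liver 4, 12 without BaP liver 4 and 11 without BaP liver 3. The 2 lower genes became 7 without BaP liver 1, 4 without BaP liver 2 and 4 without control liver 3. Without control liver 3, calls rose over all liver genes too. There 216 of 12902 reached a limma adjusted p under 0.05, against 9 with every liver kept. The shares of all liver genes past the study's threshold in these fits are not given here. By the exact test of edgeR, 9 passed the study's threshold upwards, where 4.69% of all liver genes passed. Downwards 3 passed by that test, INHBC, pck2 and THRSP, and the share of all liver genes is not given here. An adjusted p under 0.05 in that test (1.73% of all) was reached by 2, LECT2 (higher) and INHBC (lower). In edgeR's quasi-likelihood test (0.0388% of all) none reached it. Markers of other cells also varied between livers. The summed level of 8 exocrine pancreas genes was 27879 to 31858 in BaP livers and 10715 to 33508 in control livers. That of 8 red blood cell genes, all of which had a log2 fold change below 0, was 177 to 855 in BaP livers and 208 to 3351 in control livers. Their part in these counts was not tested.

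Among the 89 were 3 acute phase and defence IDs. LECT2 (ENSONIG00000019120), a chemotactic protein that hepatocytes release, had the largest log2 fold change of these 3. Its level was 9154, 4068, 10488 and 7408 in BaP livers 1 to 4, against 3096, 3683, 3272 and 2218 in control livers 1 to 4. Every BaP liver was above every control liver, although BaP liver 2 only slightly. The log2 fold change was 1.28 ± 0.32 (SE; limma adjusted p = 0.194, edgeR exact test adjusted p = 0.0429). A second LECT2 ID outside the 89 (ENSONIG00000012164) had 205, 435, 376 and 1034 in BaP livers, against 115, 56.6, 579 and 81.7 in control livers, and overlapped. HPX, or hemopexin, which binds free heme, has 2 IDs here. The more abundant one (ENSONIG00000017080) averaged 11122 ± 1253 in BaP livers and 9800 ± 2120 in control livers, with a log2 fold change of 0.21 ± 0.23 that became -0.00029 with scaling by library size. The other (ENSONIG00000011928) averaged 3632 ± 852 in BaP livers and 2441 ± 444 in control livers, with a log2 fold change of 0.56 ± 0.24.

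All 4 plasma protease inhibitors had log2 fold changes above 0, with a median of 0.57, and 2 passed the study's threshold by limma. Of these 2, AHSG did not pass by the exact test (unadjusted p = 0.0524). SERPINA11, a serpin, had 9388, 11930, 17896 and 14377 in BaP livers, against 9163, 5140, 9277 and 5039 in control livers. The groups lay apart by little, as BaP liver 1 was close to control livers 1 and 3 (log2 fold change 0.93 ± 0.30, limma adjusted p = 0.259). AHSG, or fetuin-A, a carrier of calcium phosphate, had 9595, 12154, 13051 and 13630 in BaP livers, against 8462, 6703, 8004 and 7187 in control livers. These groups did not overlap either (0.67 ± 0.21, limma adjusted p = 0.239). ITIH4, of the inter-alpha-trypsin inhibitor family, averaged 3733 ± 385 in BaP livers and 2755 ± 728 in control livers and overlapped. FETUB, the related fetuin-B, was nearly level, at 7141 ± 687 in BaP livers and 6859 ± 1666 in control livers.

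Among complement genes 5 of 6 had a log2 fold change above 0, with a median of 0.63, and 4 passed the study's threshold by limma. Of these 4, CFB and C3 (ENSONIG00000013731) did not pass by the exact test (unadjusted p = 0.0939 and 0.0834). SERPING1, the C1 inhibitor, had 8170, 8449, 11417 and 9881 in BaP livers, against 5356, 4446, 7631 and 5136 in control livers. No BaP liver was as low as any control liver (0.77 ± 0.24, limma adjusted p = 0.239). VTN, or vitronectin, which blocks the terminal complex, had 1744, 2065, 2444 and 1937 in BaP livers, against 1301, 1414, 1310 and 831 in control livers. Here too the groups lay apart (0.77 ± 0.24, limma adjusted p = 0.239). CFB, the protease of the alternative pathway, averaged 5596 ± 735 in BaP livers and 3727 ± 647 in control livers. The central component C3 has 2 IDs, and they differed. One (ENSONIG00000013731) averaged 6314 ± 1113 in BaP livers and 4103 ± 899 in control livers, and the other (ENSONIG00000016456) averaged 5122 ± 1143 in BaP livers and 6147 ± 717 in control livers. Reads of near-identical copies may have been split between such IDs. C7, of the terminal complex, averaged 2636 ± 491 in BaP livers and 1902 ± 1235 in control livers, where control liver 3 alone had 3743.

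All 6 coagulation and fibrinolysis genes had log2 fold changes above 0, with a median of 0.53, and 2 passed the study's threshold by limma. SERPINF2, which inhibits plasmin, had 1086, 1212, 1452 and 1401 in BaP livers, against 748, 515, 1135 and 677 in control livers. Control liver 3 reached into the BaP range (0.79 ± 0.27, limma adjusted p = 0.268). The fibrinogen chains FGA and FGG averaged 30563 ± 5270 and 17321 ± 2430 in BaP livers, against 21154 ± 6970 and 11773 ± 3662 in control livers. By limma, FGG passed the study's threshold (0.59 ± 0.25, limma adjusted p = 0.347) and FGA did not (0.57 ± 0.26, limma adjusted p = 0.381). By the exact test neither FGG nor FGA passed (unadjusted p = 0.129 and 0.153). Prothrombin (F2), the factor XIII subunit F13B and factor X (F10) had smaller log2 fold changes of 0.50, 0.45 and 0.28, all with overlapping groups.

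The lipoprotein genes were uneven. APOA1, the main protein of high-density lipoprotein, had 38079, 30394, 61140 and 60230 in BaP livers, against 25192, 26344, 35002 and 22117 in control livers. Only control liver 3 lay within the BaP range (0.76 ± 0.28, limma adjusted p = 0.303). APOH, which binds phospholipid, had 2566, 2647, 3662 and 2931 in BaP livers, against 1895, 1631, 1869 and 1576 in control livers, with no overlap (0.75 ± 0.21, limma adjusted p = 0.211). apoa2, also of high-density lipoprotein, averaged 18220 ± 3544 in BaP livers and 12879 ± 2059 in control livers and missed the threshold. The 2 IDs of APOB, the structural protein of low-density lipoprotein, were nearly level, with log2 fold changes of 0.05 and -0.12. A1CF, the RNA-binding partner that directs editing of APOB RNA in mammals, had 1285, 1455, 2346 and 1567 in BaP livers, against 1056, 887, 1126 and 860 in control livers. Its groups lay apart (0.73 ± 0.24, limma adjusted p = 0.264).

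The metabolic enzymes were the exception among the named groups, since none of the 3 had a log2 fold change above 0. pck2, the mitochondrial enzyme that opens gluconeogenesis from oxaloacetate, had 3540, 2701, 2615 and 2079 in BaP livers, against 4586, 4844, 6282 and 4952 in control livers. No BaP liver was as high as the lowest control liver (-0.93 ± 0.23, limma adjusted p = 0.194). G6PC, which releases glucose from its phosphate, averaged 3224 ± 741 in BaP livers and 3928 ± 1273 in control livers. AGXT, which clears glyoxylate, averaged 895 ± 353 in BaP livers and 1008 ± 153 in control livers. Both overlapped and neither passed a threshold.

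INHBC had the smallest limma p of the 89 in liver. Its human namesake encodes the activin beta C chain, a secreted factor of the TGF-beta family made by hepatocytes. Its level was 250, 331, 222 and 725 in BaP livers, against 1027, 1691, 1132 and 1706 in control livers. The groups lay apart, with a mean of 382 ± 233 in BaP livers and 1389 ± 360 in control livers. The log2 fold change was -1.99 ± 0.38 (limma unadjusted p = 0.000339, adjusted p = 0.135, edgeR exact test adjusted p = 0.00411). ASTL, named for an astacin-like metalloprotease that acts in the egg of mammals, moved the other way. It had 1320, 1115, 2284 and 2354 in BaP livers, against 778, 652, 932 and 666 in control livers (1.16 ± 0.29, limma adjusted p = 0.196), with no overlap.

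**Figure D2:**
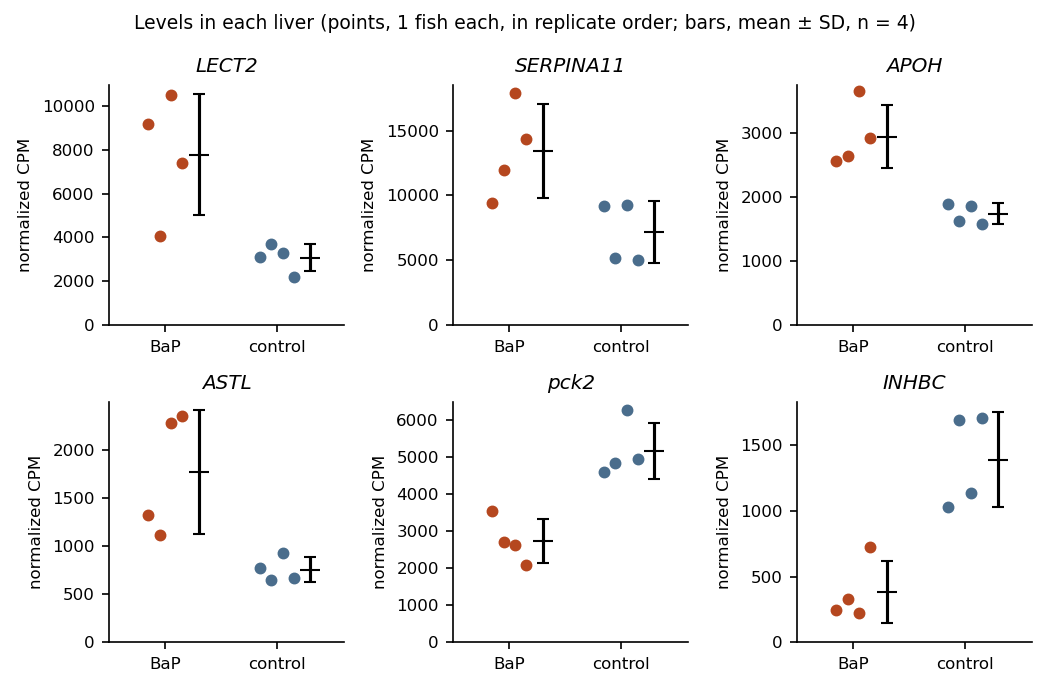
Level (normalized CPM, linear axes from 0) of 6 named genes in each of 4 BaP and 4 control livers. Points are fish and bars are mean ± SD. In LECT2, SERPINA11, APOH and ASTL the lowest BaP liver lies above the highest control liver, and in pck2 and INHBC the highest BaP liver lies below the lowest control liver.

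The other genes of these pathways that carry a name but did not meet the rule were set beside them. Of the 6 other lipoprotein genes in the liver table, none passed the study's threshold upwards and 5 passed downwards, with a median log2 fold change of -1.33. Of 7 other complement genes, 5 passed upwards and none downwards (median 0.90). Of 4 other protease inhibitors, 3 passed upwards and none downwards. Of 9 other acute phase genes, 5 passed upwards and none downwards, and of 4 other coagulation genes 2 passed in each direction. The 44 other metabolic genes were split, with 17 passing upwards and 9 downwards (median 0.41). All of these names come from the list of altered genes.

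The 51 genes without a name had a median log2 fold change of 0.28 in liver, with 37 above 0 and 14 below. Of them 7 passed the study's threshold, all upwards. One that passed, ENSONIG00000014105, averaged 22702 ± 4059 in BaP livers and 14240 ± 6305 in control livers (0.75 ± 0.30, limma adjusted p = 0.332). Among the 38 named genes 13 passed upwards and 2 downwards, with a median of 0.53.

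For a few genes fish of 1 group differed far more than the groups. The highest liver exceeded the lowest by a median of 1.56 times among BaP livers and 1.84 times among control livers. The ratio was over 10 in 4 genes among BaP livers and in 6 among control livers. ENSONIG00000002670 had 27658, 12739, 73.3 and 124 in BaP livers, against 7802, 1863, 900 and 22922 in control livers. ENSONIG00000013187 had 378, 1722, 1022 and 622 in BaP livers, against 1149, 5.15, 1991 and 1.14 in control livers. For this gene the log2 fold change of 3.44 ± 2.00, the highest of the 89, rested on control livers 2 and 4. THRSP, a regulator of lipid synthesis named after its values were seen, had 243, 632, 73.1 and 429 in BaP livers, against 1911, 2043, 130 and 2506 in control livers. Control liver 3 was lower than 3 of the BaP livers, and the log2 fold change was -2.01 ± 0.95 (limma unadjusted p = 0.0616). By edgeR's exact test it was -2.26 (unadjusted p = 0.00135, adjusted p = 0.0652).

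**Figure D3:**
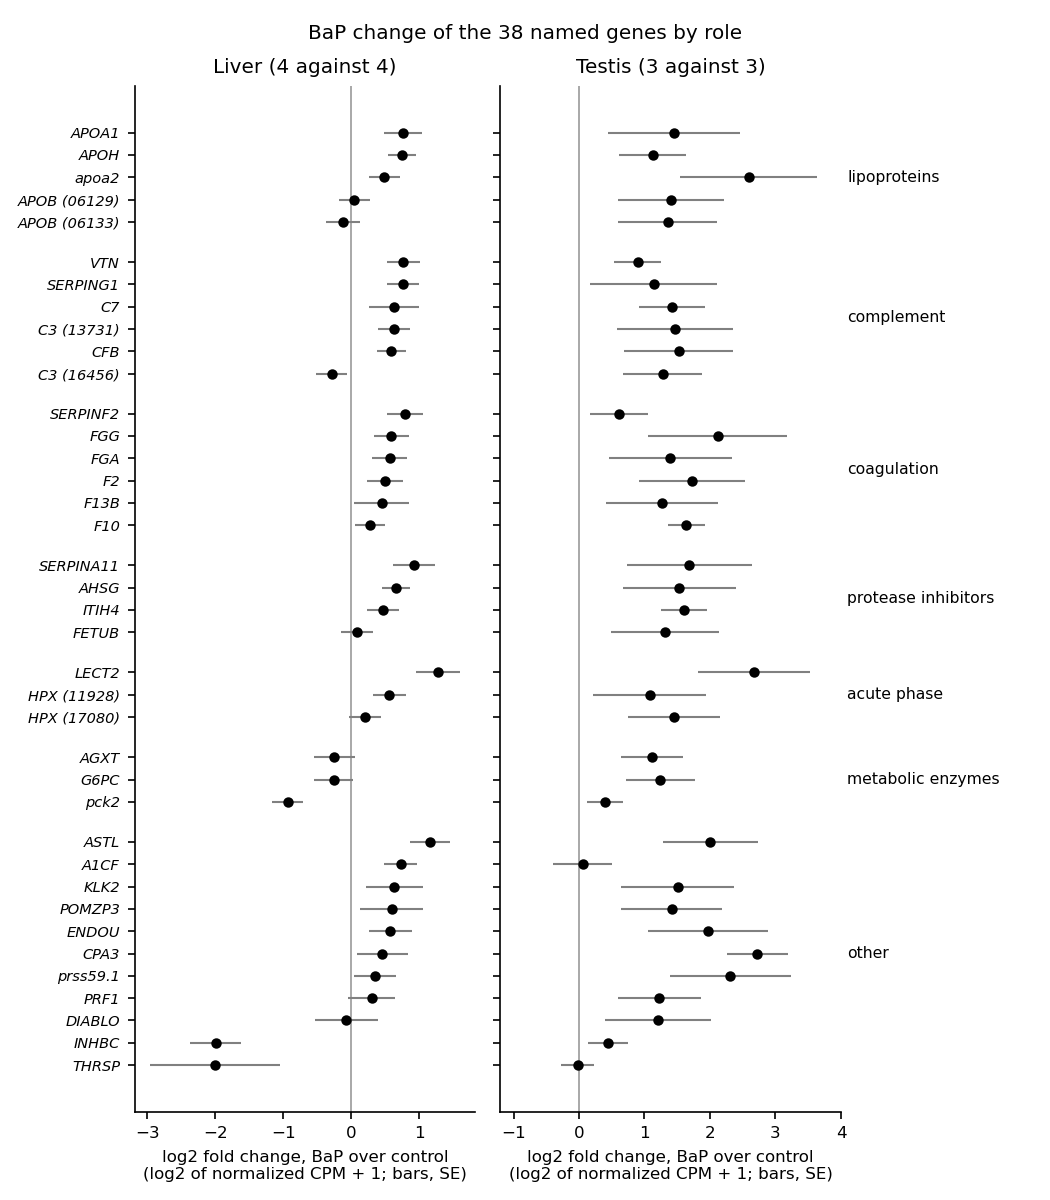
Log2 fold change, BaP over control, of the 38 named genes in liver (left) and testis (right), from limma on the log2 of normalized CPM with 1 added. Points are estimates and bars are SE, grouped by role, and genes with 2 IDs carry the last digits of each. In liver the lipoprotein, complement, coagulation, protease inhibitor and acute phase groups have medians of 0.49 to 0.63, and pck2, INHBC and THRSP lie farthest below 0. In testis 37 of 38 lie above 0, and the bars are wider than in liver except for THRSP and INHBC. The names come from the list of altered genes.

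In testis the 89 genes stood at low levels, and these were higher with BaP. The 89 genes summed to 433, 1766 and 586 normalized CPM in BaP testes 1 to 3, against 372, 328 and 403 in control testes 1 to 3. All 3 BaP testes were above all 3 control testes, but BaP testis 2 stood 4.80 times above the control mean. The ratio of the BaP mean to the control mean was 2.53, and 1.39 without BaP testis 2. As a share of gene reads the sum was 0.0442, 0.180 and 0.0602% in BaP testes, against 0.0332, 0.0345 and 0.0400% in control testes.

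The median log2 fold change of the 89 genes in testis was 0.87, beside -0.02 over the 16930 testis genes tested. It was above 0 in 80 genes and below 0 in 9. Without BaP testis 2 the median was 0.35, with 64 genes above 0. No gene reached an adjusted p under 0.05 in limma, where 0.00591% of all testis genes did, and 15 were higher (1.36% of all) and none lower (1.16%) at an unadjusted p under 0.05. The same 15 passed the study's threshold upwards (16.9%), where 1.18% of all testis genes passed. None passed downwards, where 0.998% of all did. In 15 genes every BaP testis lay above every control testis (3.24% of all genes), and in none did every BaP testis lie below (2.84%). The control libraries also chose the 89, for low values in testis and high ones in liver, which by itself favours higher BaP values in testis and lower BaP values in liver. With the genes chosen on the BaP libraries instead, 92 genes of which 84 were shared, the median was 0.86 in testis and 0.46 in liver.

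The testis counts moved with single fish and with the test. The count of 15 became 9 without BaP testis 2, 36 without BaP testis 3, 6 without control testis 1 and 8 without control testis 2. Without BaP testis 2, 2 genes passed downwards. The shares of all testis genes past the study's threshold in these fits are not given here. By the exact test 44 passed upwards (1.6% of all testis genes), and 8 reached an adjusted p under 0.05 (0.289% of all), namely apoa2, FGG, LECT2, prss59.1, CPA3, F10, ASTL and ENSONIG00000014105. By the quasi-likelihood test 37 passed upwards (1.32% of all), and none reached an adjusted p under 0.05, as for all testis genes (0%). Adding 1 before the log shrinks the fold change of genes at a few normalized CPM, as many of these were in testis.

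BaP testis 2 carried most of the excess in the sum. Of the 89 genes 84 were above the control mean in it, 74 were above every control testis and 60 were highest of all 6 testes, with a median ratio to the control mean of 4.91. In BaP testis 1, 59 were above the control mean and 5 were highest, with a median ratio of 1.53. In BaP testis 3, 48 were above the control mean and 14 were highest, with a median ratio of 1.02. Plasma protein genes showed the pattern of BaP testis 2 plainly. apoa2 had 8.15, 84.5 and 2.75 in BaP testes, against 0.923, 1.84 and 1.46 in control testes (limma adjusted p = 1.00, edgeR exact test adjusted p = 0.00275). FGG had 5.69, 72.1 and 2.24 in BaP testes, against 2.47, 1.70 and 1.06 in control testes (edgeR exact test adjusted p = 0.0291). APOA1 had 25.4, 221 and 15.2 in BaP testes, against 18.5, 6.53 and 30.7 in control testes. For APOA1 and FGG, BaP testis 3 was within the control range.

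**Figure D4:**
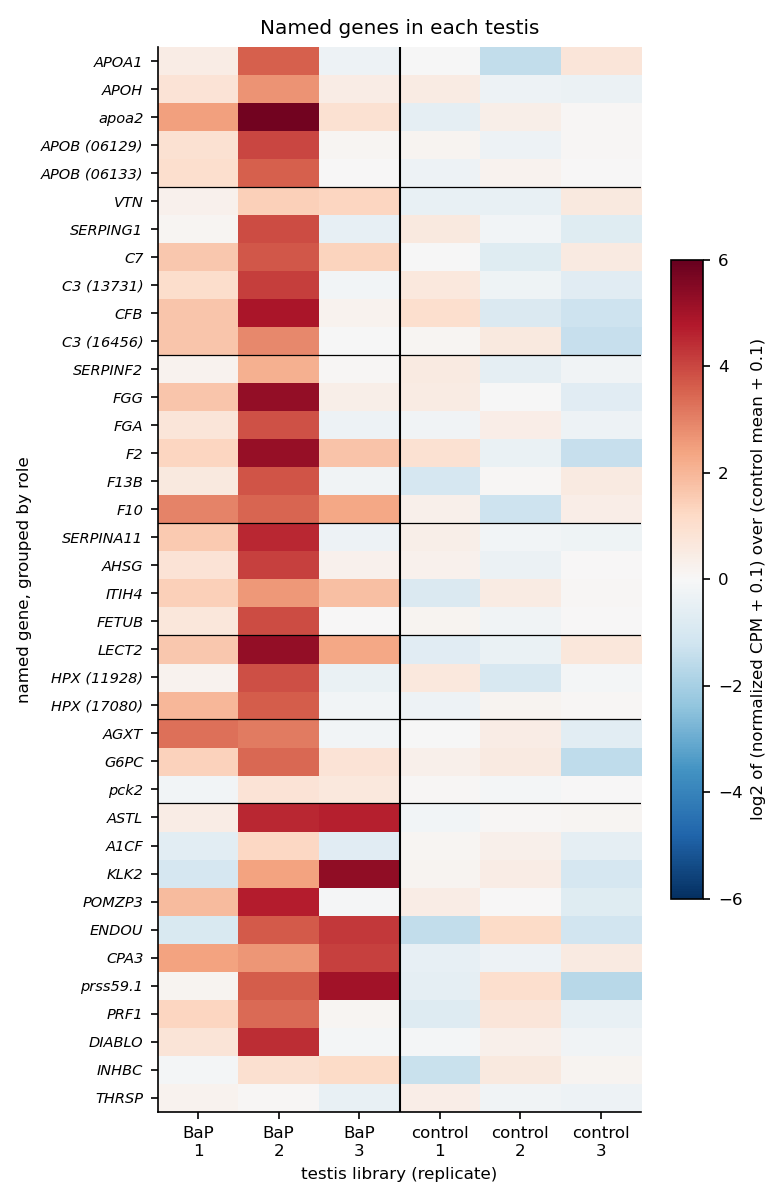
Level of the 38 named genes in each testis, as log2 of normalized CPM plus 0.1 over the control mean plus 0.1, with BaP testes on the left and control testes on the right. Rows are grouped by role as in the plot of fold changes. BaP testis 2 is above the control mean in nearly every row, and BaP testis 3 stands highest in a few rows such as prss59.1, CPA3, KLK2, ENDOU and ASTL.

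A smaller number of genes were higher in all 3 BaP testes. CPA3, a carboxypeptidase, had 12.9, 15.6 and 42.7 in BaP testes, against 1.66, 1.91 and 3.55 in control testes. The groups lay apart, with a log2 fold change of 2.72 ± 0.46 and the smallest limma p of the 89 in testis (unadjusted p = 0.000643, adjusted p = 0.710, edgeR exact test adjusted p = 8.88e-05). F10, the clotting protease factor X, had 3.08, 4.53 and 1.91 in BaP testes, against 0.406, 0.0694 and 0.439 in control testes. Control testis 2 was below the floor of 3 reads (1.64 ± 0.28, limma adjusted p = 0.710, edgeR exact test adjusted p = 0.0306). ITIH4 had 5.25, 11.8 and 6.80 in BaP testes, against 0.997, 2.71 and 1.98 in control testes (1.61 ± 0.35, limma unadjusted p = 0.00257). LECT2 had 5.47, 70.6 and 8.78 in BaP testes, against 1.03, 1.25 and 2.82 in control testes (2.67 ± 0.86, edgeR exact test adjusted p = 0.00207). C7 had 1.84, 8.39 and 1.49 in BaP testes, against 0.517, 0.278 and 0.806 in control testes (1.41 ± 0.51, limma unadjusted p = 0.0269). Among genes without a name, ENSONIG00000013029 had 4.66, 14.3 and 8.78 in BaP testes, against 1.25, 1.15 and 3.52 in control testes (1.76 ± 0.44, limma unadjusted p = 0.00561), while its log2 fold change in liver was -0.48 ± 0.29. In each of these 6 the groups lay apart.

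BaP testis 3 had its own set. The 14 genes that were highest in it included prss59.1, a trypsin-type digestive enzyme, with CPA3, ASTL, INHBC and, named after their values were seen, KLK2 and ENDOU. prss59.1 had 0.771, 9.65 and 25.3 in BaP testes, against 0.443, 1.46 and 0.146 in control testes. ASTL had 0.404, 8.16 and 9.10 in BaP testes, against 0.221, 0.278 and 0.293 in control testes (2.00 ± 0.73, edgeR exact test adjusted p = 0.00784). KLK2, named for a trypsin-like kallikrein, had 0.0734, 1.75 and 13.9 in BaP testes, against 0.295, 0.382 and 0.0732 in control testes. For KLK2, BaP testis 1 and control testis 3 were below the floor of 3 reads. BaP testis 1 was low in prss59.1 and KLK2, within the control range, and not in CPA3.

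Markers of liver and pancreas were also summed in each testis. The sum of 15 hepatocyte genes was 99.4, 795 and 70.3 in BaP testes, against 52.7, 44.4 and 63.2 in control testes. As 13 of them are among the 89, this sum largely repeats the levels above. The 2 others summed to 11.5, 14.6 and 17.9 in BaP testes, against 5.83, 8.89 and 6.59 in control testes. Most of that sum was itih1, at 11.2, 12.2 and 16.0 in BaP testes. In control livers itih1 was at 5.64 to 16.2 and in control testes at 5.61 to 8.02, so it hardly separated the tissues. The FETUB ID was at 0.294, 2.35 and 1.94 in BaP testes, highest in BaP testis 2. All 15 hepatocyte genes were above every control testis in BaP testis 2, 12 in BaP testis 1 and 6 in BaP testis 3. Of the 15, 14 were highest of the 6 testes in BaP testis 2 and 1 in BaP testis 3. The sum of 8 exocrine pancreas genes was 12.9, 99.6 and 233 in BaP testes, against 4.91, 10.4 and 6.23 in control testes. Of them prss59.1 is among the 89, and 6 others had met the same limit before they were set aside. Their low level in control testes was thus part of the choice. All 8 were highest in BaP testis 3, and all 8 were above every control testis in BaP testis 2 as well. The 8 red blood cell genes, all with a log2 fold change below 0 in testis, were in no BaP testis above every control testis. Their sums were 58.9 to 115 in BaP testes and 69.7 to 696 in control testes. Genes of every marker list were found only through names on the list of altered genes, so none of these lists is a neutral set. The germ cell list held 8 symbols, and only those named among the altered genes could be found. Of the 4 germ cell genes in the testis table, 2 had a log2 fold change above 0 and 2 below. Their sum was 265 to 307 in BaP testes and 231 to 329 in control testes. TDRD15 and MOV10L1 were at 116 to 150 and 127 to 147 in BaP testes, and at 85.9 to 173 and 105 to 135 in control testes. TXNDC8 was at 2.20, 1.12 and 5.51 in BaP testes, against 9.23, 5.10 and 2.12 in control testes. In the livers this TXNDC8 ID was at 4.49 to 108, so it did not mark the testis here. TCP11X2 was at 13, 14.1 and 17.1 in BaP testes, against 17.2, 15.4 and 19.1 in control testes. In the livers TCP11X2 was at 2.07 to 67.3, and in control liver 4 it was above every testis. MOV10L1 was at 4.81 to 97.5 in the livers, highest in BaP liver 4, and TDRD15 at 1.16 to 26.4. Only TDRD15 was far below its testis levels in every liver. The part of liver or pancreas material in the testis values was not tested.

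The level of the 89 genes in BaP testis 2 followed their level in liver. The excess of BaP testis 2 over the control-testis mean was a median of 0.269% of the mean BaP-liver level, and the middle 80% of the genes lay between 0.0450 and 0.493%. Across the 89 genes, Spearman's rho between BaP testis 2 and the 8 livers was 0.615 to 0.900. It was highest with BaP liver 3, whose title carries the same number, 14, although the labels do not say whether a number stands for a fish. For BaP testis 1 rho was 0.337 to 0.447, for BaP testis 3 it was -0.0802 to 0.144, and for the control testes it was 0.104 to 0.312. BaP testes 1 and 3 were highest with control livers 1 and 4, whose numbers differ from theirs. All 3 control testes were highest with control liver 1, whose number, 20, is carried by control testis 3 only. Most testes were thus not highest with the liver of their own number. These correlations run across genes that share libraries and depth, so they are given as a description without a test.

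**Figure D5:**
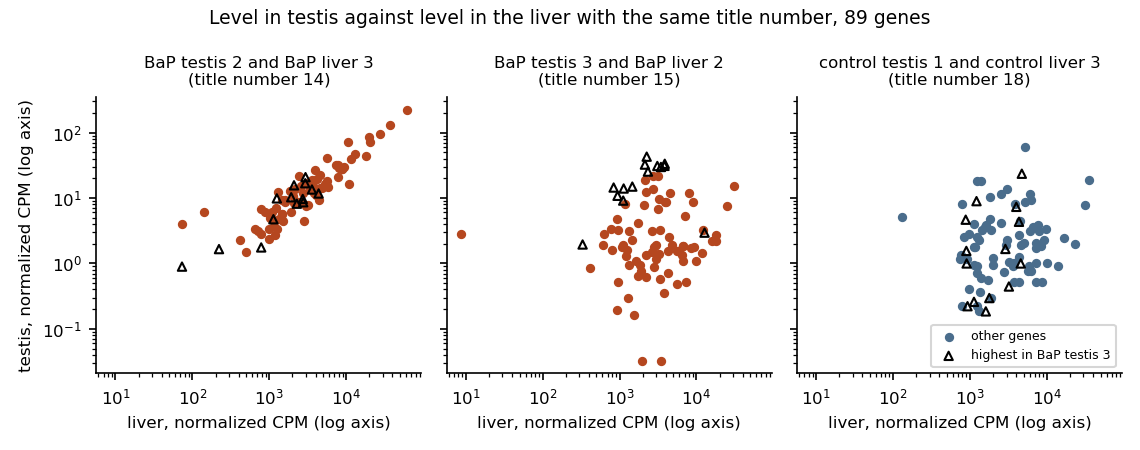
Level of the 89 genes in testis (vertical) against the liver whose title has the same number (horizontal), in normalized CPM on log axes, for BaP testis 2, BaP testis 3 and control testis 1. Points are genes, and open triangles are the 14 highest in BaP testis 3. The points of BaP testis 2 lie along a line (rho 0.900), and those of the other 2 testes form clouds without one.

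By role, all 5 lipoprotein genes, all 6 complement genes, all 6 coagulation genes, all 4 protease inhibitors, the 3 acute phase genes and the 3 metabolic enzymes had log2 fold changes above 0 in testis, with medians of 1.12 to 1.57. All of these 27 were named through the list of genes that the study called altered in these same libraries. All but pck2, VTN and SERPINF2 had an unadjusted p under 0.05 by the exact test in testis. Their shared direction was thus largely set by the naming and is not independent evidence. By limma, 6 of the 27 passed the study's threshold, namely apoa2, VTN, C7, F10, ITIH4 and LECT2. SERPING1 was one that did not by limma (unadjusted p = 0.279), although it passed by the exact test (unadjusted p = 0.00697). Its limma log2 fold change of 1.14 was -0.078 without BaP testis 2. A1CF was level (0.05 ± 0.46), with 2.39, 8.79 and 2.30 in BaP testes, against 3.99, 4.62 and 2.49 in control testes, and it was -0.46 without BaP testis 2. INHBC, at 0.734, 1.65 and 1.94 in BaP testes and 0.258, 1.25 and 0.916 in control testes, overlapped. THRSP, with a log2 fold change of -0.02, was the only named gene below 0. The 51 genes without a name had a median of 0.49, with 43 above 0, and 6 of them passed upwards. Of the other named genes in these pathways, none of 3 lipoprotein, 2 coagulation and 7 acute phase genes passed in either direction. Among 6 complement genes 1 passed downwards, among 3 protease inhibitors 1 passed upwards, and among 42 metabolic genes 3 passed upwards and 6 downwards.

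LECT2, VTN and ASTL passed the study's threshold upwards in both tissues. The share of all genes that did so is not given here, so this count is a description only. These names also come from the list of altered genes. Both tissues come from the same BaP and control groups, and their library titles share 6 numbers. The difference between the liver and the testis effect was tested as an interaction in limma over the 12377 genes in both tables. None of the 89 reached an adjusted p under 0.05, as for all genes (0%). At an unadjusted p under 0.05, the liver effect exceeded the testis effect in 1 gene (1.12%), where 3.73% of all genes did. The testis effect exceeded the liver effect in 13 (14.6%), where 3.17% of all genes did. Both control groups, which chose the 89, enter this contrast. That choice by itself favours a testis effect above the liver effect, so these counts give no independent evidence of a direction. Counts for genes chosen on the BaP libraries were not made. INHBC had the smallest p, with a difference of -2.43 ± 0.53 (liver minus testis, limma adjusted p = 0.514). F10 (-1.36), pck2 (-1.33), CPA3 (-2.26), ITIH4 (-1.14), G6PC (-1.50) and AGXT (-1.36) were others. The total of 14 became 9 without BaP testis 2, 9 without control testis 3 and 30 without BaP testis 3. The shares of all genes in those fits are not given here.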

How the data were processed

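Liver and testis RNA of adult male tilapia was sequenced from poly(A) libraries. The study trimmed the reads, aligned them with TopHat and tested them with edgeR's exact test with its own threshold, namely a fold change over 1.5 at an unadjusted p under 0.05. The genome build, the annotation and the counting program are not given in the sources used here. The deposited values are a normalized signal: the authors divided the reads of a gene by the library total times a TMM factor and scaled them as CPM. Whole reads were recovered for 100% of the values, within 0.02 of a read at low counts and within a tolerance that widened at high counts. For the most abundant genes that tolerance was too wide for a value to fail. Recomputed TMM factors equalled the deposited scaling. A filter on low values had been applied before deposit, by a rule not stated. The study's supplementary columns of fold changes and p-values were not used, and only its pairs of IDs and names were read.

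Each tissue was fitted on its own with limma 3.58.1 (R 4.3.3) on log2 values, a pseudocount of 1 having been added. All genes of the table entered, and p was adjusted over them by the Benjamini-Hochberg method. The tables were normalized separately, so levels set across tissues (the 1% limit, the testis excess as a percent of the liver level, and the correlations and plot of testis against liver) are coarse and were not tested. The tissue difference was an interaction in 1 model of all 14 libraries, taken as independent, or correlated within a title number as an alternative. Alternatives were edgeR 4.0.16 (exact and quasi-likelihood tests on the recovered reads), a pseudocount of 0.1, and a filter that kept genes reaching 1 in 3 libraries. Others were scaling by library size, a replicate block, leaving out each library, and other rules for choosing genes. Limma was tested on simulated data. The labels number the replicates without naming fish, so p-values measure the spread between these samples.

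The genes, role lists and marker lists were chosen with earlier results of these data known. Named genes are, in each tissue, the 12 named genes with the smallest limma p, the 5 named genes highest in control liver, the 5 highest in BaP testis and the 3 nearest to the limit on each side. For genes without a name at most 2 IDs that are higher and 2 that are lower are given. Others were named to complete a role list, or after their values were seen.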

Additional observations from a re-analysis of the deposited data

Results flagged for a closer look

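F10 in BaP livers was marked for a sample far from the others: BaP liver 1 had 1425 normalized CPM while the other 3 had 1113 to 1139. C7 in control livers was marked in the same way, with 3743 in control liver 3 and 1105 to 1434 in the other 3. Dixon's criterion for 4 samples was applied to 50 groups, of which chance flags about 1 in 20, and 2 were marked.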

How the results depend on the processing

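Of the 621 values of named genes recomputed under alternatives, 607 kept their direction and side of the threshold, 10 newly passed an adjusted p under 0.05 and 4 changed sign. The sign changed for HPX (ENSONIG00000017080) in liver with library size scaling (-0.00029), and in testis for SERPING1 (-0.078) and A1CF (-0.46) without BaP testis 2 and for A1CF without control testis 3 (-0.15). Leaving out 1 testis gave -0.078 to 1.86 for SERPING1 and -0.46 to 0.32 for A1CF. In liver the genes past the study's threshold numbered 9 higher with the exact test and 4 higher and 4 lower with library size scaling, which also gave a median of 0.19. With genes chosen on the BaP libraries the median was 0.46. Leaving out 1 fish gave 11 to 34 higher, 2 to 7 lower, 0 to 2 with an adjusted p under 0.05 and a median of 0.32 to 0.51. The 2 came without control liver 3, where 216 of all 12902 liver genes reached a limma adjusted p under 0.05. In testis 44 were higher with the exact test and 37 with the quasi-likelihood test, and leaving out 1 fish gave 6 to 36 higher, 0 to 2 lower and a median of 0.35 to 1.18. An adjusted p under 0.05 was reached with the exact test by 2 genes in liver and 8 in testis. For the tissue difference, leaving out 1 library gave 9 to 30 genes at an unadjusted p under 0.05. The replicate numbers are shared by BaP and control fish but belong to different fish. Same-numbered fish had correlations of -0.02 to 0.20 in liver and -0.08 to 0.37 in testis, so the numbers do not pair them, and a replicate block gave 4 lower genes in liver and 23 higher in testis. The cause of these shifts was not tested. Where no share of all genes is given for an alternative, as for the replicate block, its counts are a description only. In each testis 0 to 3 of the 89 genes had under 3 reads, and in the livers none did.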
